A study of Homo sapiens with 30 samples.

Results

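HSP90 is an abundant, ATP-driven chaperone of the cytosol that works as a dimer and completes the folding of proteins such as kinases and steroid receptors. Co-chaperones bring these client proteins to it, set the speed of its ATP cycle or bind its closed form. Many genes of this system are known targets of HSF1, the transcription factor of the heat shock response. The mRNAs described here are 10 genes chosen by name out of the 58278 genes counted, and all 10 had enough counts to be tested. They are the cytosolic chaperones HSP90AA1 and HSP90AB1, the scaffold STIP1, the kinase adaptor CDC37, the ATPase activator AHSA1, the prolyl isomerases FKBP4 and PPID, and PTGES3, CHORDC1 and CACYBP, which share a p23-like domain.

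The 30 libraries came from HEK293, an established cell line derived from human embryonic kidney, recorded as wild type in the labels and transfected with a plasmid for an EGFP-mCherry mistranslation reporter. The reporter was expressed with or without the missense-correcting tRNA made for it (mc-tRNA). By its name, such a tRNA brings one amino acid to the codons of another, so Arg-tRNA_Cys(GCA) brings arginine to cysteine codons. The 5 mc-tRNA groups were Ser-tRNA_Arg(CCG) with EGFP(R65), Arg-tRNA_Gln(CUG) with EGFP(R96Q), Arg-tRNA_Cys(GCA) with EGFP(R96C), Arg-tRNA_His(GUG) with EGFP(R96H) and Arg-tRNA_Trp(CCA) with EGFP(R96W), and each was set against the same reporter alone, with 3 libraries in every group. The design addresses how each mc-tRNA affects mRNA levels. All groups share the plasmid transfection and a sort for mCherry-positive cells 48 h later, so no group is untransfected. The cells were sorted pools, in which a change in RNA per cell and a change in the mix of cells cannot be told apart.

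Libraries held 39017548 to 55446962 gene counts. The 6 EGFP(R65) libraries had 0 counts of the ERCC spike-in sequences, against 10 to 106 in each of the 24 EGFP(R96) libraries, so the EGFP(R65) pair stands apart in that respect, and no test compares levels between it and the others. Of 6 genes listed as HEK293 markers, VIM lay at 425 to 607 CPM, KRT18 at 31.3 to 112 and NEFM at 17.1 to 95.6. KRT8 lay at 11.9 to 44.4, GATA3 at 5.99 to 23.3 and PAX2 at 1.72 to 4.84. CPM are counts scaled to the library total and its TMM factor, a correction for differences in composition. Among 7 markers of other cell types, 5 had a median of 0 CPM, while COL1A1, a fibroblast collagen, lay at 15.1 to 47.8 CPM and was highest in the Arg-tRNA_Cys(GCA) libraries. Its change of 1.39 ± 0.09 with Arg-tRNA_Cys(GCA) and 0.21 ± 0.09 with Arg-tRNA_Trp(CCA) on the log2 scale moved with the changes described next. Without COL1A1, the markers of other cell types summed to 0.141 to 0.245 CPM in the Arg-tRNA_Cys(GCA) libraries, against 0.0893 to 0.168 CPM in the EGFP(R96C) libraries. In the Ser-tRNA_Arg(CCG) libraries that sum was 1.55 to 2.02 CPM, against 0.158 to 0.3 CPM in the EGFP(R65) libraries. PECAM1, an endothelial adhesion molecule, averaged 1.70 ± 0.243 CPM there, against 0.159 ± 0.0821 CPM in EGFP(R65) (SD, n = 3 each), and rose by 3.41 ± 0.44 on the log2 scale. Of the 6 HEK293 markers, 3 rose and 1 fell with Arg-tRNA_Cys(GCA), beside 30.2% and 30.5% of all genes. Among them were KRT8 at 1.49, KRT18 at 1.43 and PAX2 at -0.86. GATA3 averaged 20.2 CPM with Arg-tRNA_Cys(GCA), against 10.0 CPM in EGFP(R96C), and 22.4 CPM with Ser-tRNA_Arg(CCG), against 11.9 CPM in EGFP(R65). With Arg-tRNA_Trp(CCA) 3 rose and 2 fell, from 0.66 for KRT8 to -0.37 for NEFM, beside 20.7% and 21.7% of all genes. With Ser-tRNA_Arg(CCG) 5 rose and NEFM fell, at -1.43, beside 26.6% and 30.7% of all genes. The part of these markers in the results was not tested.

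The heat shock element bound by HSF1 is an array of alternating GAA and TTC units. As all 10 mRNAs rose with 2 of the mc-tRNAs, the 250 bases before each RefSeq start site (GRCh38.p14) were searched for 3 such units in a row, GAA, TTC and GAA or TTC, GAA and TTC, each 2 bases of any kind from the next, which between them cover both strands. RefSeq promoters were at hand for 9 of the 10 genes, with 15 start sites, and FKBP4 was the gene without one. The 3-unit array occurred at 3 of these starts, 1 each in HSP90AA1, HSP90AB1 and CHORDC1, while 0.441% of all 35116 promoters held it. The matching stretches are shown 5′ to 3′ on the gene's strand, with the 3-unit arrays in capitals.
HSP90AA1, chr14:102087104-102087133, minus strand, 89 to 60 bases before a start: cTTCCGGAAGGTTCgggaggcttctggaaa
CHORDC1, chr11:90223084-90223113, minus strand, 64 to 35 bases before a start: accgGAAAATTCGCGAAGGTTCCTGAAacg
HSP90AB1, chr6:44247693-44247865, plus strand, 250 to 78 bases before a start: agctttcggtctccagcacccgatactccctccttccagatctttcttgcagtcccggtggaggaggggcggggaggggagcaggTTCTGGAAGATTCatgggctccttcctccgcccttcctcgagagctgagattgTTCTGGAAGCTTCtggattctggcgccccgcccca
CHORDC1 held 3 overlapping arrays, which merge into 1 run of capitals, HSP90AB1 held 2 separate ones and HSP90AA1 held 1. All 3 starts lie inside the span annotated for their gene, and the starts nearest its 5′ end for HSP90AA1 and HSP90AB1 held 0 arrays. The shorter 2-unit form, GAA and TTC or TTC and GAA at the same spacing, which lies inside every 3-unit array, occurred in 11.6% of all promoters and, among the 9 genes, in the same 3. These matches are letters in a window and were not measured for binding.

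Without an mc-tRNA, the chaperones themselves led the levels. Per kilobase of exon, HSP90AB1 (chr6:44246166-44253888, plus strand; positions of genes are from GENCODE 29 on GRCh38) averaged 478 to 607 CPM across the 5 reporter groups. HSP90AA1 (chr14:102080738-102139699, minus strand) averaged 259 to 572 CPM per kilobase. PTGES3 followed at 138.3 to 180.0 and STIP1 at 73.4 to 122.3, AHSA1, CACYBP, CDC37 and FKBP4 lay between 39.4 and 67.7, and PPID and CHORDC1 were lowest at 19.4 to 35.8 and 8.77 to 35.8. The exon length is that of all annotated exons merged, 10655 bases for CHORDC1 and 2980 for HSP90AB1, so this order depends on the annotation. By group mean in CPM, the EGFP(R65) reporter stood above all 4 EGFP(R96) reporters for 9 of the 10 genes, and FKBP4 was the exception, at 284 in EGFP(R65) and 292 in EGFP(R96C). The gap was widest for CHORDC1, at 382 CPM in EGFP(R65), which was 3.55 times the mean of the 4 EGFP(R96) reporters, and next for HSP90AA1 at 1.84 times. The reporter and the preparation of the libraries cannot be told apart in that gap. Among the 4 EGFP(R96) reporters alone, all 10 mRNAs differed by edgeR's quasi-likelihood F-test (adjusted p 7.13e-08 to 0.0225), against 54.7% of all 22321 genes tested. EGFP(R96W) had the highest of the 4 means for 7 genes, among them HSP90AA1, at 1819 to 2264 CPM in EGFP(R96W) and 1213 to 1479 CPM in EGFP(R96C), the lowest of the 4. FKBP4 alone lost the call with 1 library left out, at an adjusted p of 0.205 without the first EGFP(R96C) library.

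With Arg-tRNA_Cys(GCA), all 10 mRNAs rose. Together they took 4.16 to 4.39% of all gene counts, against 0.491 to 0.527% in the EGFP(R96C) libraries. A gene is called, and described as rising or falling, where its adjusted p (edgeR's quasi-likelihood test, Benjamini-Hochberg over all genes tested) was under 0.05, and 30.2% of all genes were called higher in this comparison. The median change of the 10 mRNAs was 2.88 on the log2 scale, that of all genes -0.04, and none of the 10 had overlapping groups, as for 30.9% of all genes in that direction.

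HSP90AA1, the stress-inducible cytosolic HSP90, had 31626, 32589 and 28224 CPM in the 3 Arg-tRNA_Cys(GCA) libraries, against 1387, 1213 and 1479 CPM in the EGFP(R96C) libraries. Every library with the mc-tRNA was far above every library without it. The log2 change was 4.50 ± 0.09 (SE from the edgeR fit, 3 libraries each; 95% interval 4.32 to 4.68), 22.7-fold, with an adjusted p of 1.11e-30. HSP90AB1, the constitutive HSP90, had 15667, 15674 and 16015 CPM, against 1672, 1597 and 1374 CPM in EGFP(R96C). Its mc-tRNA libraries lay within a narrow band and its log2 change was 3.35 ± 0.07, 10.2-fold (adjusted p 2.4e-29). Processed copies of both genes could share reads with them. As only uniquely mapped reads were counted, reads that fit a gene and a copy equally would be missing, and their number is not known. Among counted reads, 4 annotated HSP90AA copies summed to 0.159 to 0.215% of HSP90AA1 in the mc-tRNA libraries and 0.233 to 0.247% in EGFP(R96C). The 6 HSP90AB copies summed to 0.178 to 0.243% and 0.209 to 0.347% of HSP90AB1.

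The co-chaperone with the largest change was CHORDC1 (chr11:90201160-90223364, minus strand), a zinc-binding partner of HSP90. It had 1960.4, 2127 and 1452 CPM with Arg-tRNA_Cys(GCA), against 93.8, 85.6 and 109.1 CPM in EGFP(R96C), a log2 change of 4.26 ± 0.13 (19.2-fold, edgeR adjusted p 1.63e-20). The third mc-tRNA library was the lowest of its group for CHORDC1 and HSP90AA1, and still stood apart from the reporter alone. CACYBP (chr1:174999163-175011715, plus strand), which also binds a ubiquitin ligase, had 2326, 2411 and 2509 CPM, against 211, 217 and 212 CPM, 11.3-fold. STIP1 (chr11:64185272-64204543, plus strand), which hands clients over from HSP70, had 3272, 3227 and 3192 CPM, against 427, 416 and 367 CPM, a log2 change with a 95% interval of 2.84 to 3.16. AHSA1 (chr14:77457870-77469474, plus strand), which speeds up ATP hydrolysis by HSP90, had 1031, 1016 and 1014 CPM, against 157.8, 151.6 and 141.6 CPM, 6.79-fold. These 4 co-chaperones gained more than the remaining 4.

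The prolyl isomerases PPID (chr4:158709134-158723396, minus strand) and FKBP4 (chr12:2794953-2805423, plus strand), which sit in steroid receptor complexes, rose 5.33-fold and 5.27-fold. FKBP4 had 1564, 1516 and 1541 CPM with Arg-tRNA_Cys(GCA), against 307, 296 and 274 CPM in EGFP(R96C). PTGES3 (chr12:56663341-56688408, minus strand), the p23 protein that binds closed HSP90, rose 4.38-fold. The smallest change was that of CDC37 (chr19:10391134-10420121, minus strand), with 305, 304 and 322 CPM, against 188.0, 185.0 and 214 CPM. Its log2 change was 0.67 ± 0.06 (1.59-fold, edgeR adjusted p 3.08e-11). With library totals in place of TMM as the scaling, the median change of all genes was -0.59, and CDC37 was then not called (0.12, adjusted p 0.105). The other 9 were called under that scaling as well, at 1.59 for PTGES3 to 3.95 for HSP90AA1, with a median over the 10 of 2.34.

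**Figure D1:**
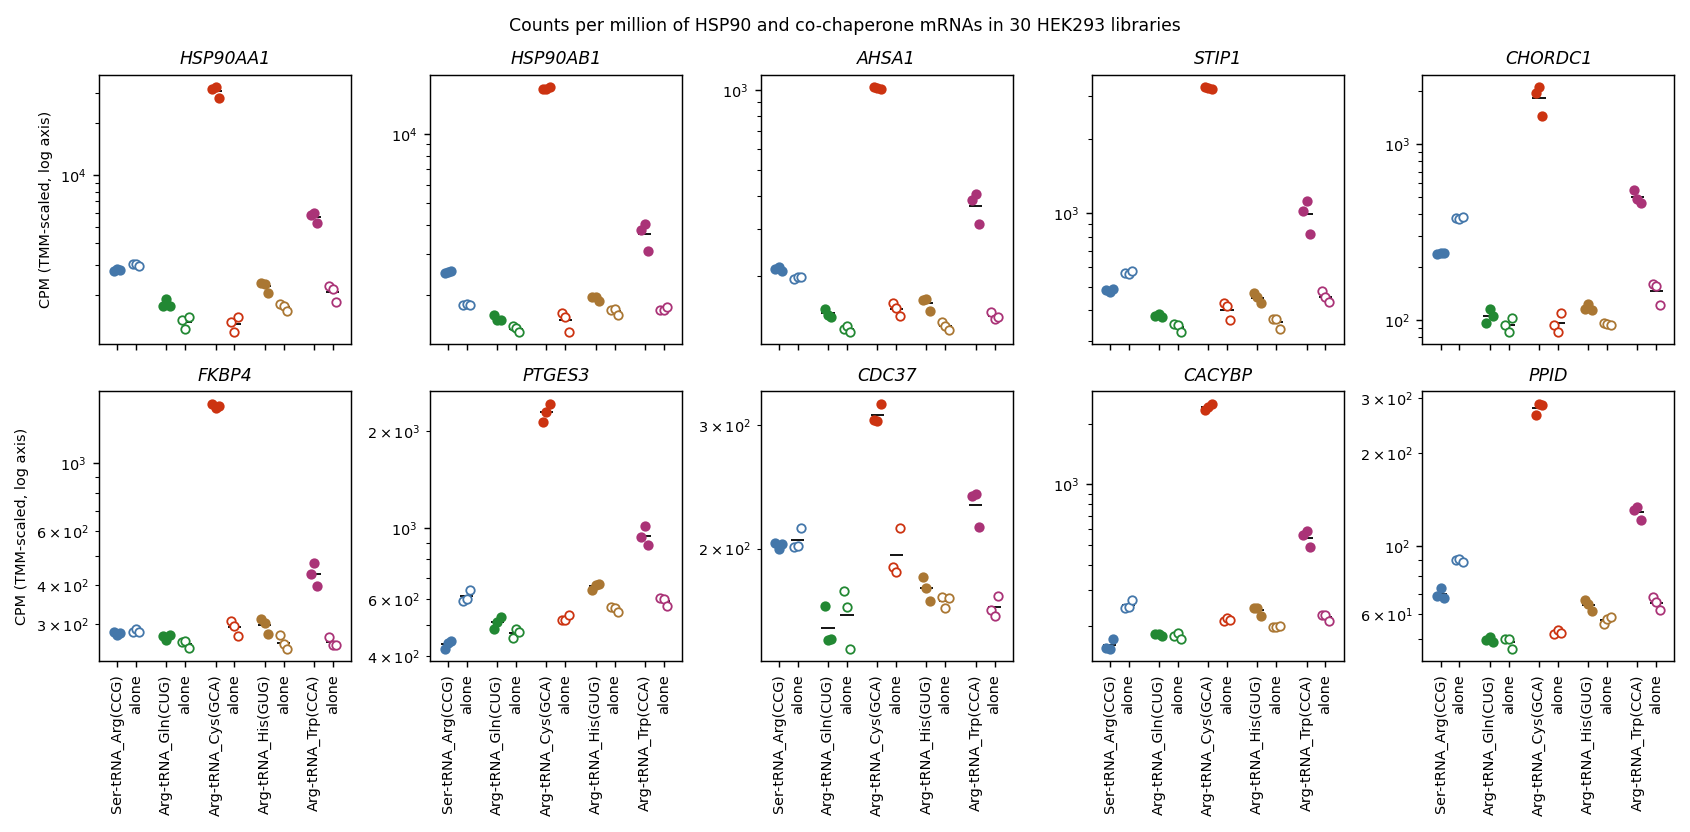
CPM (TMM-scaled, log axes that differ between panels) of the 10 mRNAs in the 30 libraries. Filled points are libraries with the mc-tRNA, open points right of them the same reporter alone, and bars the group means; with Arg-tRNA_Cys(GCA), HSP90AA1 sits at 28224 to 32589 CPM, against 1213 to 1479 CPM in EGFP(R96C) alone.

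With Arg-tRNA_Trp(CCA), all 10 mRNAs also rose, and 20.7% of all genes were called higher. Their share of gene counts was 1.21 to 1.34%, against 0.579 to 0.642% in EGFP(R96W), their median log2 change was 1.10 and that of all genes -0.03. None of the 10 overlapped between the groups, as for 22.1% of all genes in that direction. Of the 3 mc-tRNA libraries, the third was the lowest of its group for all 10 genes.

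HSP90AA1 had 5839, 6022 and 5272 CPM in the Arg-tRNA_Trp(CCA) libraries, against 2264, 2151 and 1819 CPM in the EGFP(R96W) libraries, a log2 change of 1.46 ± 0.08 (2.75-fold, edgeR adjusted p 6.15e-17). HSP90AB1 had 3817, 4069.8 and 3086 CPM, against 1707, 1719 and 1775 CPM, a log2 change of 1.08 ± 0.07 (2.11-fold, adjusted p 6.27e-15). Both chaperones were above the reporter alone in every library. CHORDC1 again led the co-chaperones, with 549, 486 and 463 CPM against 159.5, 155.8 and 121.8 CPM, 3.42-fold. AHSA1 came next with 385, 406 and 313 CPM against 146.1, 138.1 and 140.3 CPM, 2.60-fold. CACYBP rose 2.48-fold, STIP1 2.17-fold, PPID 1.96-fold, FKBP4 1.67-fold and PTGES3 1.59-fold. CDC37 was again last, with 238, 239.7 and 215 CPM against 163.2, 160.5 and 171.1 CPM, a log2 change of 0.49 ± 0.06 (edgeR adjusted p 1.35e-07). The call held for each of the 10 with library totals as the scaling, where the changes ran from 0.36 for CDC37 to 1.65 for CHORDC1.

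**Figure D2:**
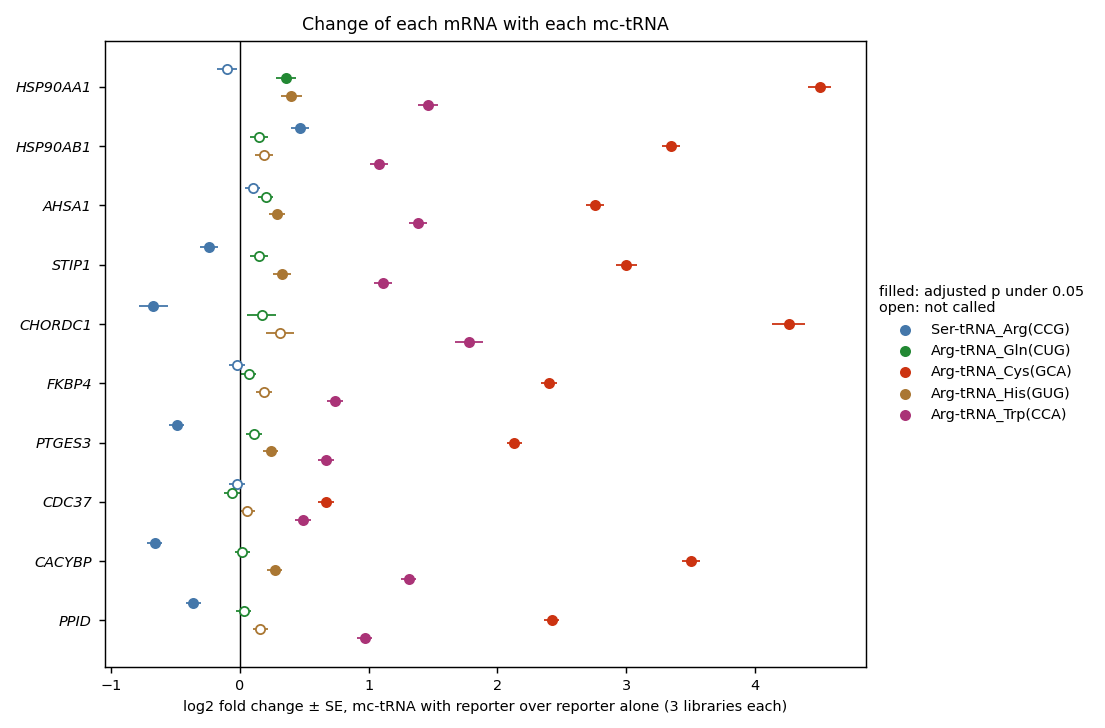
Log2 fold change (x axis, ± SE of the edgeR fit, 3 libraries against 3) of each mRNA for each mc-tRNA over its reporter alone. Filled points were called at an adjusted p under 0.05; the Arg-tRNA_Cys(GCA) points run from 0.67 for CDC37 to 4.50 for HSP90AA1, and CDC37 is called with library totals as the scaling for Arg-tRNA_Trp(CCA) but not for Arg-tRNA_Cys(GCA).

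The change with Arg-tRNA_Cys(GCA) exceeded that with Arg-tRNA_Trp(CCA) for 9 of the 10 mRNAs when the difference of the 2 effects was itself tested, against 23.7% of all genes called in that direction. The difference was 3.04 ± 0.11 for HSP90AA1 and 2.27 ± 0.10 for HSP90AB1 on the log2 scale. CHORDC1 differed by 2.49 ± 0.16, CACYBP by 2.19 ± 0.09 and STIP1 by 1.89 ± 0.10. The other 4 called differences, those of FKBP4, PTGES3, PPID and AHSA1, lay between 1.38 and 1.66. AHSA1 ranked above CACYBP and STIP1 with Arg-tRNA_Trp(CCA) and below both with Arg-tRNA_Cys(GCA), a change of place that was not tested as such. CDC37 did not pass, at 0.18 ± 0.09 (95% interval -0.01 to 0.36, edgeR adjusted p 0.112). Its difference was 0.25 without the third EGFP(R96C) library (adjusted p 0.0261) and -0.24 with library totals as the scaling (adjusted p 0.0284), so its direction depended on the scaling. Across all 5 mc-tRNAs the effects differed for all 10 mRNAs by edgeR's F-test, as they did for 72.5% of all genes.

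**Figure D3:**
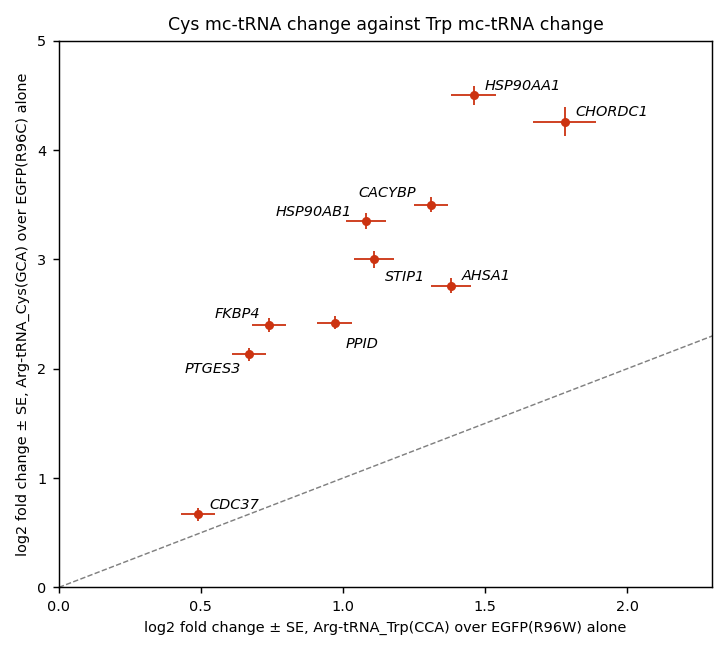
Log2 fold change with Arg-tRNA_Cys(GCA) over EGFP(R96C) alone (y axis) against that with Arg-tRNA_Trp(CCA) over EGFP(R96W) alone (x axis), each ± SE, for the 10 mRNAs. The dashed line marks equal changes and all points lie above it; CDC37, at 0.67 and 0.49, is nearest to it and has a difference of -0.24 with library totals as the scaling.

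With Arg-tRNA_His(GUG), 5 of the 10 mRNAs rose by small amounts, against 1.56% of all genes called higher. These were HSP90AA1, STIP1, AHSA1, CACYBP and PTGES3. The median log2 change of the 10 was 0.25, that of all genes -0.00, and 9 of the 10 had groups that did not overlap, with CDC37 as the exception, against 14.0% of all genes. HSP90AA1 had 2335, 2329.7 and 2057 CPM with the mc-tRNA, against 1767, 1722 and 1604 CPM in EGFP(R96H), a log2 change of 0.40 ± 0.08 (1.32-fold, edgeR adjusted p 0.00387). STIP1 had 472, 452 and 427 CPM, against 369.8, 368 and 335 CPM, a change of 0.33 ± 0.07 (adjusted p 0.00916). In both, each library with the mc-tRNA was above each without it.

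AHSA1, CACYBP and PTGES3 rose 1.22-fold, 1.21-fold and 1.18-fold with Arg-tRNA_His(GUG) (edgeR adjusted p 0.0118 to 0.0171). HSP90AB1 had 1957, 1949 and 1872 CPM, against 1719, 1727 and 1625 CPM, and was not called at 0.19 ± 0.07 (adjusted p 0.139). CHORDC1 was not called either, at 0.31 ± 0.11 (adjusted p 0.147), nor were FKBP4 (0.19), PPID (0.16) and CDC37 (0.06). Each of these calls was lost with 1 library left out. None of the 5 was called without the third EGFP(R96H) library (adjusted p 0.0554 to 0.129) or without the first mc-tRNA library (0.0563 to 0.128), although all 5 changes stayed above 0. Without the second EGFP(R96H) or the second mc-tRNA library, HSP90AA1 and STIP1 were called and the other 3 were not. FKBP4 was called by DESeq2 (adjusted p 0.0319) and without the third mc-tRNA library (0.0368). In an edgeR fit of only the 6 libraries compared, 9 of the mRNAs were called, all but CDC37. The added calls were CHORDC1 (adjusted p 0.000294), HSP90AB1 (0.0122), FKBP4 (0.02) and PPID (0.0416), at changes of 0.17 to 0.31. That fit estimates the spread from those libraries alone, so these non-calls depended on the fit. The cause was not tested.

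With Arg-tRNA_Gln(CUG), HSP90AA1 was the 1 of the 10 called, and 0.273% of all genes were called higher. It had 1714, 1884 and 1728 CPM, against 1421, 1261 and 1481 CPM in EGFP(R96Q), with no overlap and a log2 change of 0.36 ± 0.08 (1.28-fold, edgeR adjusted p 0.0189). It was not called without the second EGFP(R96Q) library (adjusted p 0.242), the second mc-tRNA library (0.125) or the EGFP(R65) libraries that share the fit (0.0574). The other 9 changes ran from -0.06 for CDC37 to 0.20 for AHSA1. HSP90AB1 had 1633, 1546 and 1548 CPM, against 1465, 1426 and 1379 CPM, a change of 0.15 ± 0.07 (adjusted p 0.451). For 5 of the 10 the mc-tRNA libraries all lay above the others, as for 8.33% of all genes. Set against Arg-tRNA_His(GUG), the effect was called different for 0 of the 10 by edgeR, against 0.811% of all genes, and 1, CACYBP, had an unadjusted p under 0.05. The interval of that difference was -0.27 to 0.18 for HSP90AA1 and -0.24 to 0.15 for HSP90AB1.

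Ser-tRNA_Arg(CCG), the only mc-tRNA that brings serine to arginine codons, gave the opposite direction for several co-chaperones. It was also the only mc-tRNA paired with EGFP(R65). In its contrast with the others, the mc-tRNA, the reporter and the preparation of the libraries cannot be told apart. Of the 10 mRNAs 1 rose and 5 fell, where 26.6% of all genes were called higher and 30.7% lower. These are small counts over 10 genes, and their distance from the shares of all genes was not tested. The median log2 change was -0.17, that of all genes -0.02, and groups without overlap were seen for 2 that were higher (31.4% of all genes) and 6 that were lower (34.9%). The mRNA that rose was HSP90AB1, with 2493, 2498 and 2542 CPM in the Ser-tRNA_Arg(CCG) libraries, against 1804, 1824 and 1800.3 CPM in the EGFP(R65) libraries. Its log2 change was 0.47 ± 0.07 (1.39-fold, edgeR adjusted p 3.07e-07). HSP90AA1 had 2745, 2841 and 2795 CPM, against 3027, 3028 and 2955 CPM, and was not called at -0.10 ± 0.08 (adjusted p 0.256), although each mc-tRNA library lay below each of the others.

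The 5 mRNAs that fell with Ser-tRNA_Arg(CCG) were co-chaperones. CHORDC1 had 237, 241 and 242 CPM, against 381, 378 and 387 CPM in EGFP(R65), and was 1.59-fold lower (log2 change -0.67 ± 0.11, edgeR adjusted p 1.02e-05). CACYBP had 154.3, 152.8 and 172.0 CPM, against 245, 246 and 268 CPM, and was 1.58-fold lower (-0.66 ± 0.06, adjusted p 1.61e-11). PTGES3 had 419.5, 438 and 446 CPM, against 594, 600.2 and 642 CPM, and was 1.41-fold lower. In these 3 the mc-tRNA libraries all stood below the reporter alone. PPID was 1.28-fold and STIP1 1.18-fold lower. AHSA1 at 0.10, FKBP4 at -0.02 and CDC37 at -0.02 were not called, and the last 2 values were 0.01 with the size factors of DESeq2. CHORDC1 and CACYBP, which fell here, were among the 3 co-chaperones with the largest rises for both Arg-tRNA_Cys(GCA) and Arg-tRNA_Trp(CCA).

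Over all 10 groups, HSP90AA1 was ordered as Arg-tRNA_Cys(GCA), Arg-tRNA_Trp(CCA), EGFP(R65), Ser-tRNA_Arg(CCG), Arg-tRNA_His(GUG), EGFP(R96W), Arg-tRNA_Gln(CUG), EGFP(R96H), EGFP(R96Q) and EGFP(R96C) from high to low. Neighbours whose libraries overlapped were Arg-tRNA_His(GUG) with EGFP(R96W), EGFP(R96W) with Arg-tRNA_Gln(CUG), Arg-tRNA_Gln(CUG) with EGFP(R96H), and EGFP(R96Q) with EGFP(R96C). HSP90AB1 had the same 2 groups on top, at 15785 ± 199.0 and 3657 ± 511 CPM (SD, n = 3 each), but Ser-tRNA_Arg(CCG) came next, at 2511 ± 27.0 CPM. Arg-tRNA_His(GUG) and EGFP(R65) followed at 1926 and 1809 CPM without overlap. From EGFP(R96W) downwards, each group of HSP90AB1 overlapped the next. In the places of EGFP(R65) and Ser-tRNA_Arg(CCG), the reporter and the preparation of the libraries cannot be told apart, and these orders were not tested.

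The balance of the 2 chaperone mRNAs was also set side by side. The ratio of HSP90AA1 to HSP90AB1 counts, which needs no scaling factor, was 2.02, 2.08 and 1.76 in the Arg-tRNA_Cys(GCA) libraries, against 0.83, 0.76 and 1.08 in the EGFP(R96C) libraries. The groups did not overlap, and the ratio was 2.22-fold higher with the mc-tRNA. With Arg-tRNA_Trp(CCA) it averaged 1.57 ± 0.12, against 1.20 ± 0.157 in EGFP(R96W), and with Arg-tRNA_His(GUG) 1.16 ± 0.055, against 1.00 ± 0.0214 in EGFP(R96H) (SD, n = 3 each). Neither pair overlapped. Ser-tRNA_Arg(CCG) went the other way, with 1.10, 1.14 and 1.10, against 1.68, 1.66 and 1.64 in EGFP(R65). For Arg-tRNA_Gln(CUG) the ratio averaged 1.13 ± 0.0851, against 0.976 ± 0.0953 in EGFP(R96Q), and the libraries overlapped. The exact two-sided permutation test gave p = 0.1 for the 4 pairs without overlap, the smallest that 3 against 3 libraries allow, and p = 0.2 for Arg-tRNA_Gln(CUG).

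**Figure D4:**
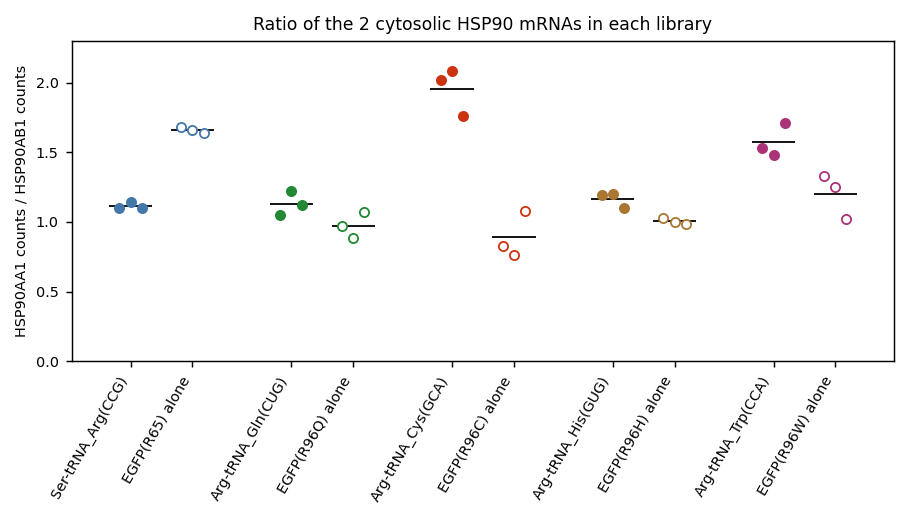
Ratio of HSP90AA1 to HSP90AB1 counts in each of the 30 libraries (y axis, starting at 0), mc-tRNA groups filled and the same reporter alone open to their right, with bars for group means. The ratio is 1.76 to 2.08 with Arg-tRNA_Cys(GCA), against 0.76 to 1.08 in EGFP(R96C), and 1.10 to 1.14 with Ser-tRNA_Arg(CCG), against 1.64 to 1.68 in EGFP(R65).

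The organelle paralogs of HSP90 did not share one direction. HSP90B1, the paralog of the endoplasmic reticulum, averaged 2454 ± 131.5 CPM with Arg-tRNA_Cys(GCA), against 586 ± 18.1 CPM in EGFP(R96C), a log2 change of 2.07 ± 0.07. It rose by 1.18 ± 0.07 with Arg-tRNA_Trp(CCA) and by 1.59 ± 0.07 with Ser-tRNA_Arg(CCG), where HSP90AA1 was at -0.10. With Arg-tRNA_Gln(CUG) and Arg-tRNA_His(GUG) it was at 0.14 and 0.01 and was not called. TRAP1, the mitochondrial paralog, fell by 0.45 with Arg-tRNA_Cys(GCA), by 0.27 with Arg-tRNA_Trp(CCA) and by 0.58 with Ser-tRNA_Arg(CCG), each called by edgeR.

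Other HSP90 co-chaperones moved in both directions. Of 26 further co-chaperone mRNAs, all tested, 12 rose and 8 fell with Arg-tRNA_Cys(GCA), where 30.2% of all genes were called higher and 30.5% lower. Their median log2 change was 0.16, beside 2.88 for the 10 genes. NUDC, a p23-like partner of HSP90, rose most at 2.43 ± 0.07, followed by SUGT1, which links HSP90 to ubiquitin ligases and immune receptors, at 2.25 ± 0.07. UNC45A, a myosin chaperone, fell most at -0.81 ± 0.07, followed by the ATPase RUVBL1 at -0.56 ± 0.08. With library totals as the scaling, 8 of the 26 rose and 17 fell, so the split of this list depended on the scaling. With Arg-tRNA_Trp(CCA), where 20.7% of all genes were called higher and 21.7% lower, 13 rose and 2 fell (9 and 4 with library totals), NUDC leading at 1.04 ± 0.07 and AARSD1 next at 0.71 ± 0.11, while NUDCD2 at -0.28 and FKBP5 at -0.26 fell. With Ser-tRNA_Arg(CCG), 4 rose and 7 fell, both shares below the 26.6% and 30.7% of all genes, from 0.61 for FKBPL and 0.59 for FNIP1 to -0.81 for the phosphatase PPP5C and -0.64 for NUDCD2. None of the 26 was called by edgeR with Arg-tRNA_Gln(CUG) or Arg-tRNA_His(GUG), where 2 and 4 had an unadjusted p under 0.05, and DESeq2 also called 0 in both.

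Client proteins showed mixed directions. Of 24 client mRNAs, 12 rose and 8 fell with Arg-tRNA_Cys(GCA), beside 30.2% and 30.5% of all genes, so the share that fell was near that of all genes. The median was 0.13 and the changes ran from -1.32 to 1.43. The hypoxia factor HIF1A rose by 0.80 ± 0.10, while the receptor kinase ERBB2 fell by 1.01 and the kinase RIPK1 by 1.32. With library totals as the scaling, 2 of the 24 rose and 16 fell. With Arg-tRNA_Trp(CCA), 20.7% of all genes were called higher and 21.7% lower. Of the clients, 11 rose and 1, RIPK1, fell at -0.31 ± 0.08 (6 and 5 with library totals). ULK1 was highest there at 0.59 ± 0.08, followed by SRC at 0.47 ± 0.07. With Ser-tRNA_Arg(CCG), 10 rose and 3 fell, beside 26.6% and 30.7% of all genes, with ULK1 at 0.66 and ARAF at -0.67. EGFR was the 1 client called with Arg-tRNA_Gln(CUG), at 0.52 ± 0.08, where 0.273% of all genes were called higher. With Arg-tRNA_His(GUG), where 1.56% of all genes were called higher, edgeR called 0 clients, and 3 had an unadjusted p under 0.05.

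The 15 other heat shock genes, most of them chaperones and partners of the HSP70 system, all rose with Arg-tRNA_Cys(GCA) and with Arg-tRNA_Trp(CCA). In these comparisons 30.2% and 20.7% of all genes were called higher. The median log2 change of the 15 was 4.64 with Arg-tRNA_Cys(GCA) and 1.89 with Arg-tRNA_Trp(CCA), above the 2.88 and 1.10 of the HSP90 genes. CRYAB, a small heat shock protein, had 129.9, 127.0 and 144.7 CPM with Arg-tRNA_Cys(GCA), against 0.119, 0.112 and 0.0503 CPM in EGFP(R96C). The EGFP(R96C) values lay near the 0.0543 to 0.0751 CPM that 3 counts make in those libraries before the TMM factor is applied. The size of this rise is therefore uncertain. DNAJB1, an HSP40 that works with HSP70, rose by 7.27 ± 0.10. The smallest of the 15 rises were 2.35 for HSPE1 and 2.48 for HSPA4. With Arg-tRNA_Trp(CCA), the inducible HSP70 gene HSPA1A led at 3.23 ± 0.18. Reads that fit HSPA1A and its near-identical neighbour HSPA1B equally would be missing from both, so the size of its change is uncertain. With Arg-tRNA_His(GUG) 8 of the 15 rose, against 1.56% of all genes, up to 1.09 ± 0.27 for HSPA1A. With Arg-tRNA_Gln(CUG) 2 rose, against 0.273% of all genes, HSPA8 at 0.38 ± 0.08 and DNAJB1 at 0.32 ± 0.08. With Ser-tRNA_Arg(CCG) 4 rose, led by DNAJB4 at 0.82 and BAG3 at 0.63, and 6 fell, most of all HSPA1B at -1.51 and HSPA1A at -1.48. There 26.6% of all genes were called higher and 30.7% lower, so the share that rose was near that of all genes.

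**Figure D5:**
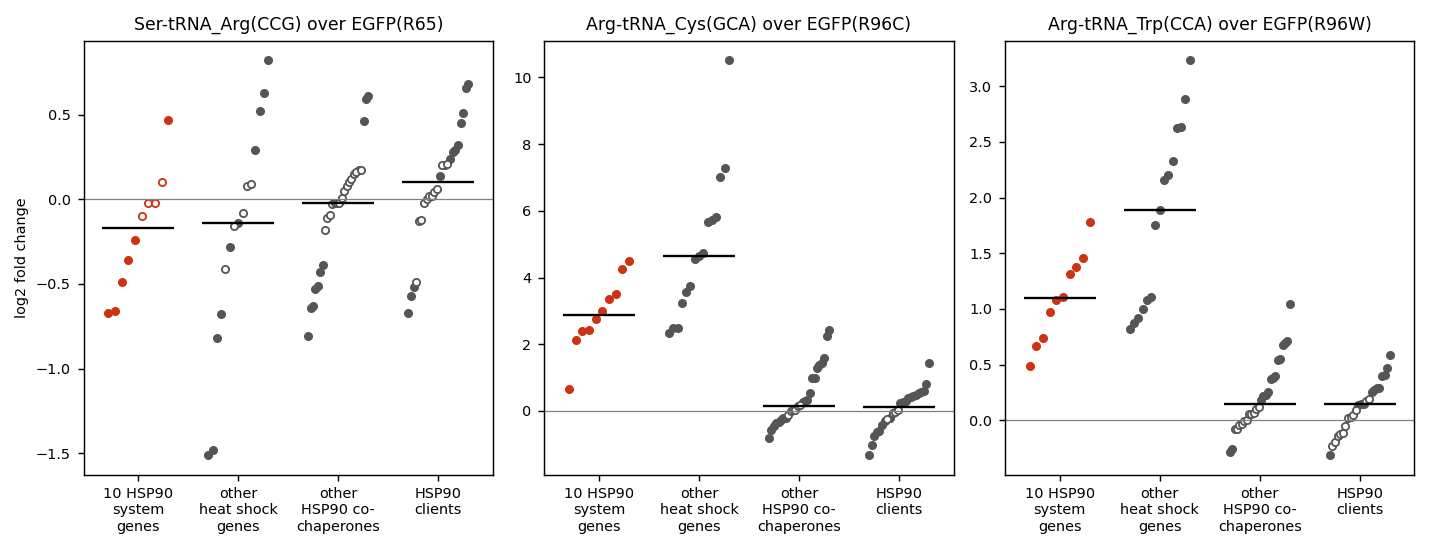
Log2 fold change (y axis, scales differ between panels) over the reporter alone for the 10 HSP90 system genes (red), 15 other heat shock genes, 26 other HSP90 co-chaperones and 24 client mRNAs (grey), with bars for list medians and filled points for an adjusted p under 0.05. With Arg-tRNA_Cys(GCA) the medians are 2.88 and 4.64 for the first 2 lists and 0.16 and 0.13 for the others, which turn to -0.38 and -0.42 with library totals as the scaling.

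Over the 10 group means of log2 CPM, the genes with the pattern most like that of HSP90AA1 among 10215 candidates were TCP1, a subunit of the chaperonin TRiC, and ST13, an HSP70 and HSP90 partner, with Pearson's r of 0.994 and 0.993. CDC42SE2, GFM2 and PAPOLA followed at 0.988 to 0.992. For HSP90AB1 they included MORF4L2 at 0.994, DNAJB1 at 0.993, and TCEAL9 and UBE2B at 0.992. The groups with Arg-tRNA_Cys(GCA) and Arg-tRNA_Trp(CCA) weigh heavily in such values, which describe the 10 means only. Likeness said little about size, since TCP1 changed by 2.84, ST13 by 2.22 and DNAJB1 by 7.27 with Arg-tRNA_Cys(GCA). Among the 10 HSP90 genes themselves, r ran between 0.85, for CDC37 with PTGES3, and 0.99.

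The coding sequences of the 10 genes were also read for the codons that each mc-tRNA matches. Cysteine codons made up 0.829 to 4.22 per 100 codons, and 6 of the 10 lay below the median of 2.03 over 19493 genes. HSP90AA1 and HSP90AB1, at 0.956 and 0.829, were among the 6, and CHORDC1, whose protein is rich in zinc-binding cysteines, had the highest value. The tryptophan codon ranged from 0.184 per 100 in STIP1 to 3.12 in PTGES3, and PTGES3 and AHSA1, at 2.96, exceeded the 95th percentile of 2.94. For the codon CAG and the histidine pair, all 10 lay between the 5th and 95th percentiles. For CGG all 10 lay under the 95th percentile of 3.12, and the 5th percentile is 0, so no gene can lie below it. CACYBP and PTGES3 held 0 CGG codons. The levels of the mc-tRNAs themselves were not analysed here.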

How the data were processed

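Gene expression was read as mRNA from 30 HEK293 libraries. The authors ran STAR, SAMtools and featureCounts on build hg38, per the submitters' processing notes. These notes name no versions, and the annotation and strand setting are likewise not given in the sources used here. Per the file headers, uniquely mapped paired reads were counted. Per the labels' protocols, RNA came from sorted mCherry-positive cells, was selected for polyA and made into strand-specific libraries, and replicates are independent. Deposited values are unnormalized counts of 58278 genes and 92 ERCC sequences, and the ERCC sequences were not tested.

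The deposited counts entered a robust quasi-likelihood fit (edgeR 4.0.16, R 4.3.3) after filterByExpr, with TMM factors of 0.714 to 1.124, 1 mean for each of 10 groups and 20 residual degrees of freedom. It covered 22321 genes, had a biological coefficient of variation of 8.24%, and p-values were adjusted over all of them. SE is the size of the log2 change divided by the square root of the F statistic. A count of 0 allows 3 counts, 0.0541 to 0.0769 CPM before the TMM factor is applied, which covers counting error only. Replicates differed by more than counting error (chi-square per degree of freedom 2.08 to 36.7).

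Alternatives were RLE factors, library totals, no filter, DESeq2 1.42.0, a replicate block, fits without the EGFP(R65) libraries or of 6 libraries, and leaving out each library. The members and lists were chosen with earlier results of these data known. All 10 members are named; from other lists, the rule names the 2 highest and 2 lowest called changes of a comparison and the organelle paralogs, and a few of these are not reported here. Likeness used the 5 highest correlations among genes with a mean of at least 10 CPM (prior count 2). Gene positions and coding sequences are from GENCODE 29 and promoters from RefSeq GRCh38.p14, both of the hg38 build.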

Additional observations from a re-analysis of the deposited data

Results flagged for a closer look

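The effects of the 5 mc-tRNAs differed for each of the 10 mRNAs by edgeR's F-test of the difference itself. The adjusted p was 6.66e-27 for HSP90AA1, 8.68e-25 for HSP90AB1, 1.61e-28 for CACYBP, 2.34e-25 for PPID, 7.86e-24 for STIP1, 1e-23 for AHSA1, 1.14e-23 for PTGES3, 2.03e-23 for FKBP4, 2.98e-18 for CHORDC1 and 2.55e-09 for CDC37. The effects also differed for 72.5% of all genes. All 10 mRNAs rose with Arg-tRNA_Cys(GCA) and Arg-tRNA_Trp(CCA), where 30.2% and 20.7% of all genes were called higher. With Ser-tRNA_Arg(CCG), 5 fell and HSP90AB1 rose, where 30.7% of all genes were called lower and 26.6% higher.

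For 9 of the 10, against 23.7% of all genes, the effect of Arg-tRNA_Cys(GCA) also exceeded that of Arg-tRNA_Trp(CCA) in a test of the difference. On the log2 scale it was 3.04 for HSP90AA1, 2.49 for CHORDC1, 2.27 for HSP90AB1, 2.19 for CACYBP, 1.89 for STIP1, 1.66 for FKBP4, 1.46 for PTGES3, 1.45 for PPID and 1.38 for AHSA1.

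The ERCC spike-in sequences, which entered no test, reached 106 counts in 1 EGFP(R96) library, against 0 in all 6 EGFP(R65) libraries.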

How the results depend on the processing

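Of 1520 values of single genes recomputed under the alternatives, 1480 kept their direction and their side of the threshold, 21 lost and 9 gained the call, and 10 changed sign. The counts of members called with Arg-tRNA_Cys(GCA), Arg-tRNA_Trp(CCA) and Ser-tRNA_Arg(CCG) were 10, 10 and 6 with every library left out in turn. With Arg-tRNA_His(GUG), 5 were called, 9 when only the 6 libraries compared were fitted and 0 to 6 with 1 library left out; with Arg-tRNA_Gln(CUG), 1 was called, 0 without the EGFP(R65) libraries and 0 to 1 with 1 library left out. Of the other co-chaperones, 11 were called with Ser-tRNA_Arg(CCG) and 17 in the fit of 6 libraries; with Arg-tRNA_His(GUG), 0 were called by edgeR, 3 in the fit of 6 libraries and 1 with the replicate block. Fits of 6 libraries estimate the spread from those libraries alone, while the main fit shares its estimate over all 10 groups. The cause of these moves was not tested.

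All values that changed sign were near 0 or belong to CDC37. With Ser-tRNA_Arg(CCG), FKBP4 was 0.01 with RLE factors and with DESeq2, and CDC37 was 0.01 with both and -0.05 to 0.00 with 1 library left out, the highest without EGFP(R65) replicate 3. With Arg-tRNA_Gln(CUG), CACYBP was -0.00 with library totals and -0.00 to 0.05 with 1 library left out, and PPID -0.01 to 0.05. The HSP90AA1 difference between Arg-tRNA_Gln(CUG) and Arg-tRNA_His(GUG) was -0.11 to 0.01 with 1 library left out. In each of these the end past 0 was without EGFP(R96Q) replicate 3. The CDC37 difference between Arg-tRNA_Cys(GCA) and Arg-tRNA_Trp(CCA) was -0.24 with library totals. That scaling set the median change of all genes at -0.59 for Arg-tRNA_Cys(GCA) and -0.16 for Arg-tRNA_Trp(CCA), and the share of called genes that were higher at 20.2% and 31.4%, against 49.8% and 48.8% with TMM.

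Over all genes, 123 were called with Arg-tRNA_Gln(CUG), 66 in the fit of 6 libraries and 242 by DESeq2; 563 were called with Arg-tRNA_His(GUG), 369 without the EGFP(R65) libraries and 1912 in the fit of 6 libraries; and 181 for the difference between them, 79 without the EGFP(R65) libraries and 505 with the replicate block.

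Replicate numbers paired the samples weakly at most. Same-numbered libraries had correlated deviations of -0.08 to 0.14, over 0.1 in 4 of 15 pairs. Of the 30 libraries, 18 correlated best with the library of their own number, out of 3 candidates for each. With the replicate block in the fit, the called members stayed at 10, 10 and 6 for Arg-tRNA_Cys(GCA), Arg-tRNA_Trp(CCA) and Ser-tRNA_Arg(CCG). FKBP4 was also called with Arg-tRNA_His(GUG) (edgeR adjusted p 0.0425), for 6 in all. Over all genes, 1068 were then called with Arg-tRNA_His(GUG), against 563 without the block. The 3 libraries of a group limit what could be detected in the small changes with Arg-tRNA_Gln(CUG) and Arg-tRNA_His(GUG).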
